A study of Mus musculus with 18 samples.

Results

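The genes described here build cholesterol and fatty acids, set how active those pathways are, and carry sterol inside and out of the cell. They were 37 gene symbols chosen by function and looked up in the deposited expression tables, and all 37 stood among the 26665 genes listed there. By role they were 17 genes of mevalonate and sterol synthesis, 5 genes of SREBP control, 8 genes of fatty acid synthesis and 7 genes of sterol sensing, export and trafficking. Mouse spleen T cells of 2 genotypes, sorted into 3 populations, gave 18 RNA-seq libraries, 3 per group. The CD28KO groups came from C57BL/6 mice without CD28 (CD28-/-) that carried the Foxp3EGFP reporter, and the WT groups came from C57BL/6 mice that carried Foxp3EGFP alone, so every group shared the reporter. CD28 is the receptor that gives T cells their main costimulatory signal. The 3 populations of each genotype were tTreg (regulatory T cells with the surface receptor Nrp1), pTreg (regulatory T cells without Nrp1) and Tconv (conventional T cells). No treatment is named in the labels, and the age of the mice and any pooling of animals are not given in the sources used here. Since no label ties a replicate to an animal of its own, p-values here cover only the spread among the libraries, which may be technical.

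Cholesterol is made from acetyl-CoA through mevalonate, isoprenoids, squalene and lanosterol, and fatty acids are made from the same acetyl-CoA. When sterol in the membrane of the endoplasmic reticulum runs low, SCAP escorts the SREBP transcription factors (encoded by Srebf1 and Srebf2) to the Golgi for cleavage, and the SREBPs then switch on the enzymes of both pathways; when sterol is plentiful, INSIG proteins hold SCAP back. Surplus sterol is sensed by the LXR receptors, which switch on the exporters ABCA1 and ABCG1, while cholesterol taken up from outside leaves the lysosome through NPC2 and NPC1. T cells are known to raise sterol and fatty acid synthesis when they are activated, in part through costimulation.

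Values are FPKM (fragments per kilobase of transcript, scaled to mapped fragments), given as the mean ± SD of n = 3 libraries. Changes and differences are in log2(FPKM + 1), first-named group minus second, ± SE from a limma model of all 18 libraries, and a gene was called at a Benjamini-Hochberg adjusted p under 0.05 over all 12265 genes tested. This scale understates the fold of genes with low FPKM. Library sums of FPKM ran from 514726 to 994139, and the depth in reads is unknown. A single entry, Mir5105, held 2.98% to 26.9% of the sum. Its share was highest in CD28KO Tconv replicate 3 (26.9%), WT pTreg replicate 1 (20.8%) and WT Tconv replicate 1 (19.4%), and its part in the values below was not tested. The libraries had 10703 to 11741 genes at an FPKM of 1 or more. Cd28 itself stood between 54.1 and 117 in the 9 libraries labelled CD28KO and between 31.5 and 82.8 in the 9 labelled WT, so its value for the whole gene does not check the genotype labels, on which every direction of CD28KO against WT below rests. Foxp3 was between 56.0 and 137 in the tTreg and pTreg libraries and at most 0.285 in 5 of the 6 Tconv libraries, but at 21.1 in CD28KO Tconv replicate 3. Nrp1, the receptor of the Treg sort, was 55.6 to 83.5 in the tTreg libraries and at most 0.911 in the pTreg libraries. Together with that library, WT pTreg replicate 1 (the lowest median expression) and WT Tconv replicate 1 (the highest FPKM sum) stood apart from the rest, and CD28KO tTreg replicate 3 carried Tconv transcripts.

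Of the 37 genes, 35 reached an FPKM of 1 in at least 3 libraries and were tested. The other 2 were Scd1, a fatty acid desaturase, which lay between 0.00278 and 0.163 FPKM, and Nr1h3, which encodes LXR alpha and lay between 0.543 and 1.31 FPKM. Abundance within the set spanned a wide range when averaged over the 18 libraries. Npc2, which encodes a small lysosomal protein that hands cholesterol to NPC1, averaged 78.5 FPKM. The fatty acid elongase gene Elovl5 averaged 64.4, Nr1h2 (LXR beta) 57.2 and Srebf2, the SREBP gene of the sterol branch, 56.6 FPKM. At the low end stood the exporter gene Abca1 at 1.86, the sterol ketoreductase gene Hsd17b7 at 2.04, the elongase gene Elovl6 at 2.95 and Acaca, the carboxylase that commits acetyl-CoA to fatty acids, at 3.35 FPKM. Of the LXR pair, the beta gene Nr1h2 was thus the abundant one, and of the desaturases Scd2 was, with a mean of 14.6 FPKM, although reads from near-identical stretches of the desaturase paralogs may be split between them.

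Within sterol synthesis the mean levels ran from 2.04 to 24.0 FPKM. The highest belonged to Fdps (farnesyl diphosphate synthase, 24.0), Ebp (a sterol isomerase, 18.2) and Sc5d (a sterol desaturase, 16.8). Between 11.3 and 13.5 FPKM lay Acat2, the thiolase that starts the pathway, Dhcr7, a reductase of its last step, Hmgcs1, which makes HMG-CoA, and Mvd, which decarboxylates mevalonate diphosphate. The others were Fdft1 (squalene synthase), Pmvk and Mvk (the kinases of mevalonate), Tm7sf2 and Nsdhl (a reductase and a dehydrogenase after lanosterol), Cyp51 (lanosterol demethylase), Sqle (squalene epoxidase), Idi1 (an isoprenoid isomerase) and Lss (lanosterol synthase), all between 5.67 and 8.63 FPKM. Among the regulators, Scap averaged 27.5, Srebf1 24.4, Insig1 17.3 and Insig2 8.63 FPKM. For fatty acids, the citrate lyase gene Acly averaged 39.6, the fatty acid synthase gene Fasn 19.6 and Acss2, which makes acetyl-CoA from acetate, 16.3 FPKM. On the export side, Abcg1 averaged 18.3, Npc1 12.02 and Stard4, a carrier of sterol between membranes, 6.23 FPKM.

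**Figure D1:**
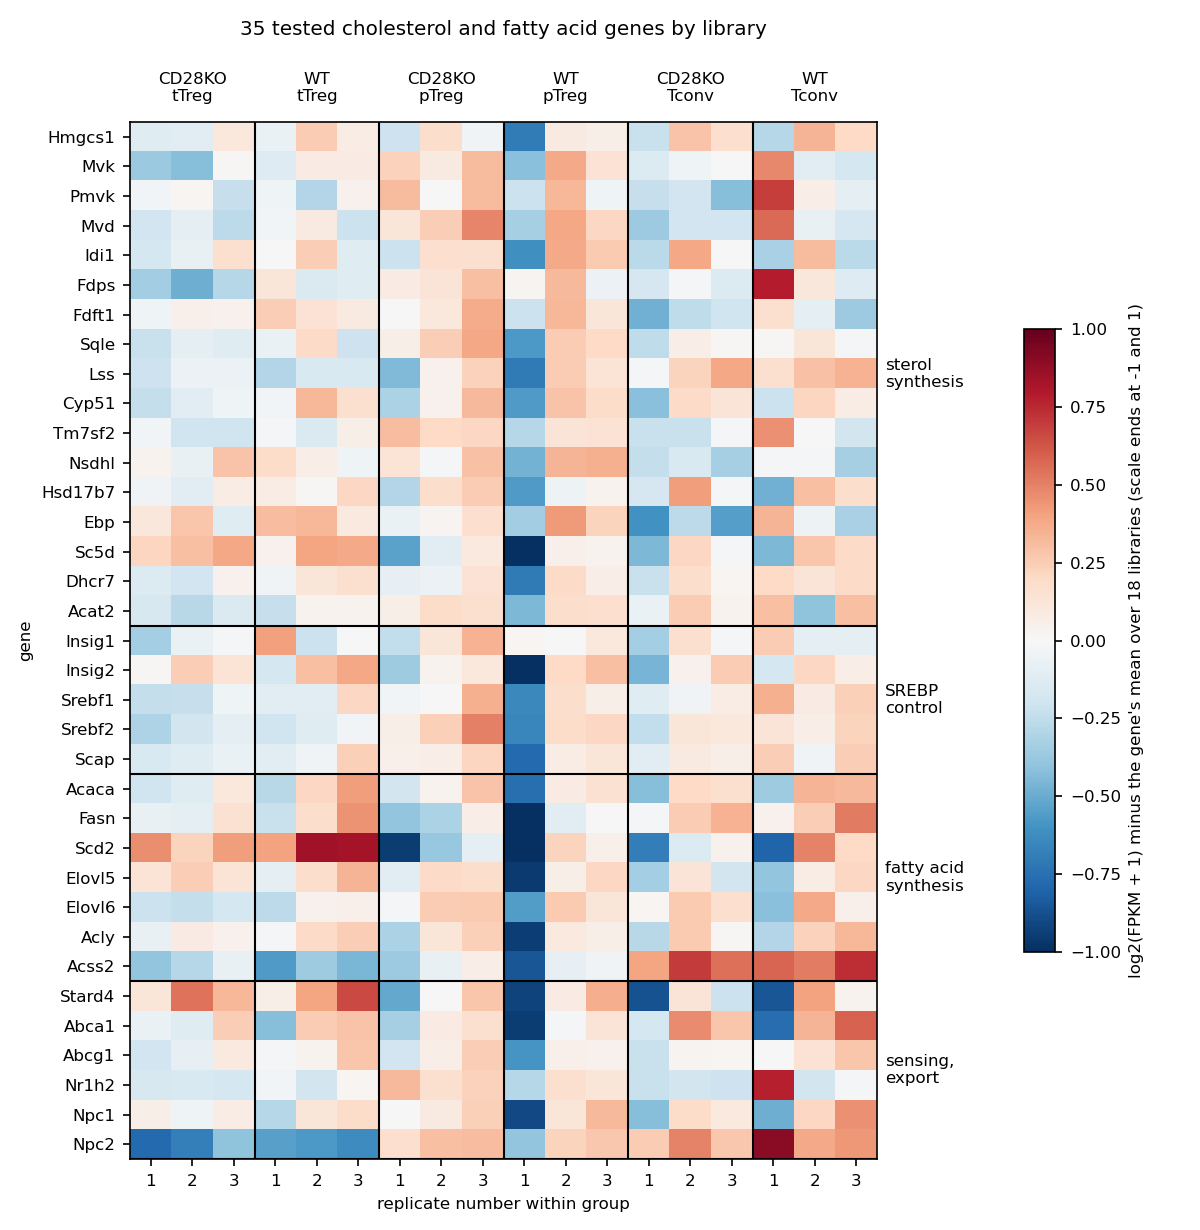
Each cell shows log2(FPKM + 1) of one gene in one library minus that gene's mean over the 18 libraries, with red above the mean, blue below it and the colour scale ending at -1 and 1; columns are libraries by group and replicate number, and rows are the 35 tested genes by role. WT pTreg replicate 1 is blue down most of its column, holding the lowest value for 27 of 35 genes, while the Npc2 row is blue in all 6 tTreg libraries and the Acss2 row is red in all 6 Tconv libraries.

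The ratio of the highest to the lowest library was 1.74 for Insig1 and 7.36 for Abca1, with the other genes between. WT pTreg replicate 1 held the lowest value for 27 of the 35 genes (77.1%), and for 61.4% of all tested genes. WT Tconv replicate 1 and WT Tconv replicate 3 each held the highest value for 8 of them (22.9%), against 26.5% and 10.6% of all tested genes. In the heat map, Npc2 and Acss2 are the genes whose rows follow the populations in both genotypes.

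The comparison of CD28KO with WT tTreg asks whether loss of CD28 altered lipid synthesis transcripts in Nrp1+ Treg. None of the 35 tested genes was called by limma, beside 0.204% of all tested genes. An unadjusted p under 0.05 was held by 0 of 35, beside 469 of all 12265 tested genes. Changes lay between -0.32 and 0.21, with 28 of 35 below 0 and a median of -0.12, beside a median of -0.05 over all tested genes. Fdps, Fdft1 and Cyp51 did not overlap between the groups, all lower in CD28KO tTreg, beside 15.1% of all tested genes that did the same. Cyp51 was 6.17, 6.88 and 7.21 FPKM in CD28KO tTreg, against 7.31, 9.69 and 8.47 FPKM in WT tTreg. The highest CD28KO library lay just under the lowest WT library, and the change was -0.29 ± 0.24 (adjusted p = 1). Fdft1 was 8.23, 8.85 and 8.78 FPKM in CD28KO tTreg, against 10.3, 9.49 and 9.14 FPKM in WT tTreg, a change of -0.14 ± 0.18 (adjusted p = 1). For Fdps the values were 18.3, 16.5 and 19.2 FPKM in CD28KO tTreg and 25.6, 21.2 and 21.5 FPKM in WT tTreg. The groups lay further apart than for the other 2 genes, at -0.32 ± 0.20 on the log2 scale (adjusted p = 1), and Fdps was picked after its values were seen. Fdps, Fdft1 and Cyp51 are among 9 of the 37 genes that overlap another coding gene (here Gm43738, Ctsb and Akap9), and the strand setting is not given. Ctsb was 36.7, 39.5 and 43.0 FPKM in CD28KO tTreg, against 46.6, 49.5 and 64.3 FPKM in WT tTreg, while the Akap9 values of these groups overlapped. The part of the overlapping genes was not tested. For 34 of 35 genes the 95% interval of the change lay between -1 and 1, a 2-fold change on this scale, and the exception was Scd2 at -1.09 to 0.45. Summed over 15 cell cycle genes, CD28KO tTreg stood at 142 to 178 FPKM and WT tTreg at 172 to 217 FPKM. Most of each sum was Pcna, at 90.5 to 124 FPKM in CD28KO tTreg and 106 to 140 FPKM in WT tTreg. By gene, 11 of the 12 cell cycle genes tested had a change below 0 and 1 above, with a median of -0.38 and 0 called. The part of the cell cycle in the changes of the 35 genes was not tested.

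All 5 genes of SREBP control had a change below 0 in CD28KO tTreg (3 of 5 after quantile normalization), and none was called. Srebf2 was 44.8, 49.0 and 52.0 FPKM in CD28KO tTreg, against 48.4, 51.2 and 54.6 FPKM in WT tTreg, so that the groups overlapped (-0.08 ± 0.20, adjusted p = 1). Srebf1, the SREBP gene of the fatty acid branch, was 20.3, 20.5 and 23.4 FPKM in CD28KO tTreg and 22.3, 22.2 and 28.0 FPKM in WT tTreg (-0.17 ± 0.20, adjusted p = 1). Insig1, a sterol-responsive brake, was 13.3, 16.3 and 16.9 FPKM in CD28KO tTreg and 23.1, 14.6 and 17.1 FPKM in WT tTreg (-0.21 ± 0.20, adjusted p = 1). In each case the spread within a group covered the difference between the means. Of the 7 fatty acid genes tested, Fasn was 19.1 ± 1.98 FPKM in CD28KO tTreg and 21.4 ± 5.09 FPKM in WT tTreg (-0.14 ± 0.25, adjusted p = 1), and Acly was 39.3 ± 2.26 FPKM in CD28KO tTreg and 43.0 ± 4.23 FPKM in WT tTreg (-0.12 ± 0.26, adjusted p = 1). Both overlapped between the genotypes.

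In pTreg the same question gave 0 of 35 genes called by limma, beside 0.204% of all tested genes. An unadjusted p under 0.05 was held by 0 of 35, beside 544 of all 12265 tested genes. Changes were above 0 for 33 of 35 genes with a median of 0.19, and the median over all tested genes was 0.19 as well. The sign of both medians rested on a single library and on the scaling, since without WT pTreg replicate 1 they were -0.06 and -0.06, and after quantile normalization -0.01 and 0.02. Tm7sf2 and Nr1h2 did not overlap between the groups, both higher in CD28KO pTreg, beside 4.57% of all tested genes. The largest change was that of Srebf2, which was 57.9, 66.0 and 79.2 FPKM in CD28KO pTreg, against 34.98, 63.4 and 64.5 FPKM in WT pTreg. Only the first WT library lay well below the rest, and the change of 0.35 ± 0.20 was not called (adjusted p = 0.77). Hmgcs1 was 10.5, 13.9 and 11.9 FPKM in CD28KO pTreg and 7.13, 13.1 and 12.8 FPKM in WT pTreg (0.16 ± 0.23, adjusted p = 0.779), again with replicate 1 of WT lowest. Sqle was 7.69, 8.91 and 9.95 FPKM in CD28KO pTreg and 4.63, 8.98 and 8.62 FPKM in WT pTreg (0.27 ± 0.20, adjusted p = 0.77). All 35 intervals of the change lay between -1 and 1.

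Tconv gave 0 of 35 genes called by limma as well. Of all tested genes 0.791% were called, every one of those lower in CD28KO Tconv. An unadjusted p under 0.05 was held by 2 of 35, beside 1185 of all 12265 tested genes. Changes were below 0 for 30 of 35 genes with a median of -0.12, beside -0.16 over all tested genes. After quantile normalization the medians were 0.04 and 0.00, so this direction too changed with the scaling, and without CD28KO Tconv replicate 1 they were 0.01 and -0.09. The 2 genes at an unadjusted p under 0.05 are named because of their values. Pmvk was 6.67, 6.90 and 5.72 FPKM in CD28KO Tconv, against 13.6, 8.47 and 7.46 FPKM in WT Tconv (-0.51 ± 0.21, adjusted p = 0.462). Ebp was 11.4, 14.7 and 11.9 FPKM in CD28KO Tconv, against 22.8, 17.2 and 14.1 FPKM in WT Tconv (-0.46 ± 0.21, adjusted p = 0.501). In both, WT Tconv replicate 1 was the highest library of the comparison. Pmvk, Mvd, Srebf1 and Nr1h2 did not overlap between the groups, all lower in CD28KO Tconv, beside 18.2% of all tested genes. Hmgcs1 had close means, at 13.1 ± 2.45 FPKM in CD28KO Tconv and 13.2 ± 3.02 FPKM in WT Tconv (-0.01 ± 0.23, 95% interval -0.48 to 0.47, adjusted p = 1). All 35 intervals lay between -1 and 1. The sums over the 15 cell cycle genes were 136 to 164 FPKM in CD28KO Tconv and 171 to 210 FPKM in WT Tconv. Most of each sum was again Pcna, at 93.3 to 117 FPKM in CD28KO Tconv and 111 to 139 FPKM in WT Tconv. By gene, 12 of the 12 tested had a change below 0, with a median of -0.45 and 0 called. The part of these genes was not tested.

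**Figure D2:**
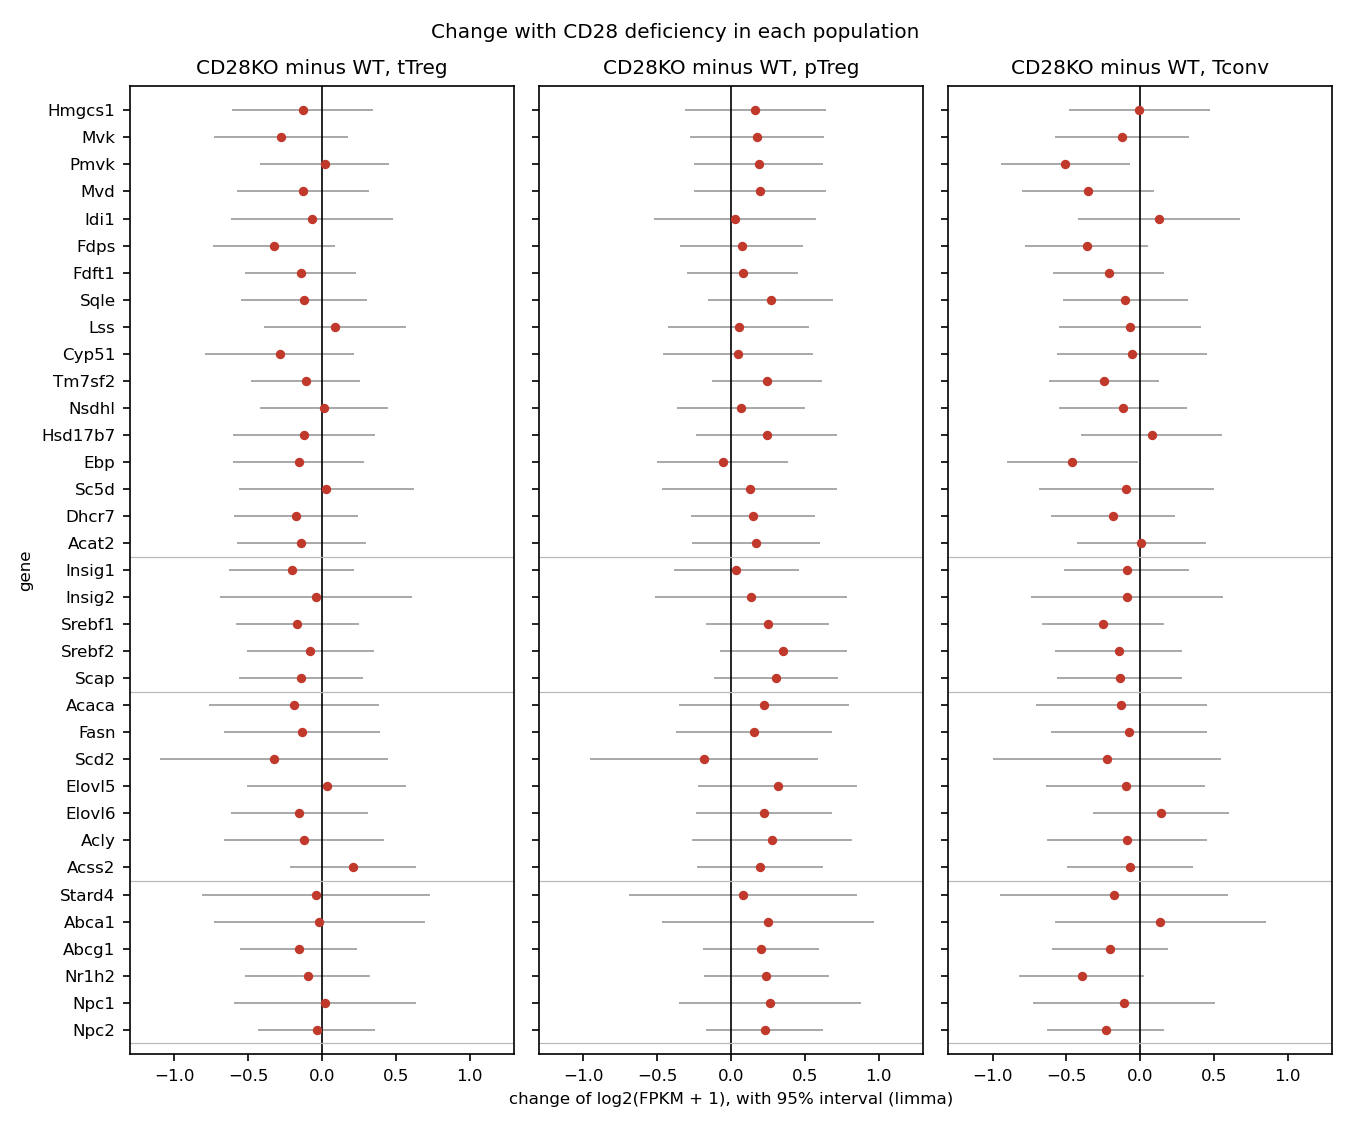
Points are the change of log2(FPKM + 1), CD28KO minus WT, for each of the 35 tested genes in tTreg, pTreg and Tconv (panels from left), with the 95% interval from limma as a line; grey horizontal lines part the roles. No gene was called, most points lie left of 0 in tTreg and Tconv and right of 0 in pTreg, and Pmvk and Ebp in Tconv are the points whose interval ends below 0.

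Whether the CD28 effect differed between populations was tested directly as a difference of differences. Limma called 0 of 35 genes in each of the 3 tests, beside 0.0245% of all tested genes for tTreg against pTreg, 0.122% for tTreg against Tconv and 0.0734% for pTreg against Tconv. At an unadjusted p under 0.05 there were 0, 0 and 2 genes in that order, beside 180, 267 and 1073 of all 12265 tested genes. The 2 genes were Pmvk (0.69 ± 0.29, adjusted p = 0.467) and Nr1h2 (0.64 ± 0.28, adjusted p = 0.467). Nr1h2 was 70.5, 62.9 and 66.2 FPKM in CD28KO pTreg, against 46.0, 62.9 and 61.2 FPKM in WT pTreg. In Tconv it was 48.2, 49.4 and 48.6 FPKM in CD28KO libraries, against 97.3, 49.5 and 55.4 FPKM in WT libraries. The CD28KO libraries lay above all WT libraries in pTreg and below all of them in Tconv, by a narrow margin in each case.

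Between populations, the gene with the most regular difference was Npc2 (GRCm38 chromosome 12, 84754562 to 84773152, minus strand). It was 42.9, 45.9 and 55.8 FPKM in CD28KO tTreg, 83.3, 91.6 and 92.1 FPKM in CD28KO pTreg, and 88.8, 105 and 89.6 FPKM in CD28KO Tconv. In WT it was 50.5, 49.4 and 47.5 FPKM in tTreg, 56.3, 86.5 and 89.5 FPKM in pTreg, and 139.8, 96.9 and 101 FPKM in Tconv. Every tTreg library lay below every pTreg and Tconv library, in both genotypes. Npc2 was lower in CD28KO tTreg than in CD28KO pTreg with a difference of -0.88 ± 0.19 (adjusted p = 0.00943), the 1 gene of 35 called there, beside 4.08% of all tested genes (0.946% lower). It was lower in CD28KO tTreg than in CD28KO Tconv (-0.96 ± 0.19, adjusted p = 0.00151) and in WT tTreg than in WT Tconv (-1.16 ± 0.19, adjusted p = 0.000297). In WT tTreg against WT pTreg the difference was -0.62 ± 0.19 (adjusted p = 0.0774). There, 0 of 35 genes were called by limma, beside 4.93% of all tested genes. An unadjusted p under 0.05 was held by 2 of 35, beside 1718 of all 12265 tested genes. Of the 35, Npc2 lay without overlap lower in WT tTreg than in WT pTreg (2.03% of all tested genes did) and Scd2 higher (12.6%). Between pTreg and Tconv, Npc2 was not called, at -0.08 ± 0.19 in CD28KO (adjusted p = 0.935) and -0.54 ± 0.19 in WT (adjusted p = 0.136). After quantile normalization, Npc2 was called between CD28KO pTreg and CD28KO Tconv.

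The difference of Npc2 between WT tTreg and WT pTreg was called without WT pTreg replicate 1 (-0.83 ± 0.15, adjusted p = 0.00581), without WT Tconv replicate 1 (-0.62 ± 0.16, adjusted p = 0.0389), after quantile normalization (-0.74 ± 0.09, adjusted p = 0.000129) and with the replicate number as a block (adjusted p = 0.0484). Conversely, the call in CD28KO tTreg against CD28KO pTreg was lost without CD28KO tTreg replicate 1 (adjusted p = 0.0652) or replicate 2 (adjusted p = 0.0523). The difference between CD28KO and WT in the tTreg minus pTreg gap of Npc2 was -0.26 ± 0.26 (adjusted p = 0.863). CD28KO tTreg replicate 3, whose sum over 3 Tconv marker genes was 41.2 FPKM against 3.93 and 6.85 FPKM in its group's other libraries, also had the highest Npc2 of the tTreg libraries, and without it the difference to CD28KO pTreg was -0.99 ± 0.21 (adjusted p = 0.0136). The sums over 9 macrophage and monocyte marker genes were 11.8 to 22.1 FPKM in CD28KO tTreg, 12.2 to 21.0 in WT tTreg, 13.3 to 27.2 in CD28KO pTreg, 11.5 to 26.6 in WT pTreg, 10.04 to 13.7 in CD28KO Tconv and 11.5 to 22.1 in WT Tconv. Those sums came mostly from Lyz2 and Cd68, the defining marker Csf1r was at most 0.739 FPKM, and the part of these genes in the Npc2 values was not tested. In bulk RNA such as this, fewer cells that express a gene and less RNA per cell cannot be told apart.

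Its partner Npc1, the lysosomal membrane protein that takes cholesterol from NPC2, had no such pattern. Npc1 averaged 12.005 ± 0.557 FPKM in CD28KO tTreg, 11.9 ± 2.16 in WT tTreg, 12.8 ± 1.16 in CD28KO pTreg, 11.2 ± 4.77 in WT pTreg, 11.5 ± 2.67 in CD28KO Tconv and 12.7 ± 4.28 in WT Tconv. The tTreg minus Tconv difference of Npc1 was 0.08 ± 0.29 in CD28KO (95% interval -0.54 to 0.70) and -0.05 ± 0.29 in WT (95% interval -0.67 to 0.57). The exporter genes also overlapped between populations. Abcg1 was 17.4 ± 1.84 FPKM in CD28KO tTreg and 17.4 ± 1.79 FPKM in CD28KO Tconv (0.00 ± 0.19, adjusted p = 0.999), and 19.6 ± 2.26 in WT tTreg and 20.2 ± 2.01 in WT Tconv (-0.04 ± 0.19, adjusted p = 0.95). Abca1 was 1.81 ± 0.402 FPKM in CD28KO tTreg and 2.21 ± 0.702 FPKM in CD28KO Tconv (-0.17 ± 0.34, adjusted p = 0.921), with its lowest single value, 0.428 FPKM, in WT pTreg replicate 1. Stard4 had means of 7.72 and 8.02 FPKM in CD28KO and WT tTreg, and 4.74 to 5.67 FPKM in the 4 other groups, with no call against any of them. With the replicate block Stard4 was called higher in CD28KO tTreg than in CD28KO Tconv (0.65 ± 0.20, adjusted p = 0.0319).

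Acss2 (GRCm38 chromosome 2, 155517948 to 155585724, plus strand), the acetyl-CoA synthetase that uses acetate, was lower in Treg than in Tconv. It was 11.5, 12.4 and 14.5 FPKM in CD28KO tTreg, 11.7, 14.6 and 16.2 FPKM in CD28KO pTreg, and 20.5, 25.5 and 23.1 FPKM in CD28KO Tconv. In WT it was 10.04, 11.8 and 10.9 FPKM in tTreg, 8.06, 14.5 and 14.99 FPKM in pTreg, and 23.6, 22.4 and 26.4 FPKM in Tconv. All 12 Treg libraries lay below all 6 Tconv libraries. The difference to Tconv was -0.80 ± 0.20 in CD28KO tTreg (adjusted p = 0.0117), -1.08 ± 0.20 in WT tTreg (adjusted p = 0.00117) and -0.94 ± 0.20 in WT pTreg (adjusted p = 0.0102). In CD28KO pTreg it was -0.67 ± 0.20 and missed the threshold (adjusted p = 0.0633), but it was called with the replicate block (adjusted p = 0.0101) and without WT pTreg replicate 1 (adjusted p = 0.00353). Between the Treg subsets Acss2 differed by -0.13 ± 0.20 in CD28KO and -0.14 ± 0.20 in WT, tTreg minus pTreg (adjusted p = 0.935 and 0.765). The counts behind these were 2 of 35 genes called in CD28KO tTreg against CD28KO Tconv (12.1% of all tested genes, 2.47% lower). In WT tTreg against WT Tconv 2 were called (12.6%, 4.26% lower), and in WT pTreg against WT Tconv 1 (4.49%, 2.44% lower). In CD28KO pTreg against CD28KO Tconv 0 were called (5.85%). There, 7 of 35 genes had an unadjusted p under 0.05, beside 2013 of all 12265 tested genes. All of these calls were lower in Treg, and all were Npc2 or Acss2.

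The Acss2 call in CD28KO tTreg was lost without CD28KO tTreg replicate 1 (adjusted p = 0.0642) or CD28KO Tconv replicate 2 (adjusted p = 0.0619). The one in WT pTreg was lost without WT Tconv replicate 3 (adjusted p = 0.0565) and in a model of only WT pTreg and WT Tconv (adjusted p = 0.38). The coding genes Ggt7 and Gss on the other strand overlap Acss2, and the strand setting of the deposited values is not given, so reads of the 3 genes cannot be told apart where they overlap. Ggt7 averaged 4.20 ± 0.401 FPKM in CD28KO tTreg, 6.21 ± 1.45 in WT tTreg, 1.79 ± 0.132 in CD28KO pTreg, 2.28 ± 0.839 in WT pTreg, 2.04 ± 0.433 in CD28KO Tconv and 2.19 ± 0.121 in WT Tconv. Gss averaged 3.23 ± 0.455 FPKM in CD28KO tTreg, 3.31 ± 0.164 in WT tTreg, 3.18 ± 0.706 in CD28KO pTreg, 2.61 ± 0.619 in WT pTreg, 4.23 ± 0.187 in CD28KO Tconv and 5.17 ± 0.559 in WT Tconv. Ggt7 means were highest in tTreg, where Acss2 was low, and Gss means were highest in Tconv, as were those of Acss2; both stood below Acss2 in every group. The other producer of acetyl-CoA in the set, Acly, overlapped between populations, with tTreg minus Tconv at 0.02 ± 0.26 in CD28KO (95% interval -0.53 to 0.56) and 0.05 ± 0.26 in WT (95% interval -0.49 to 0.59).

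**Figure D3:**
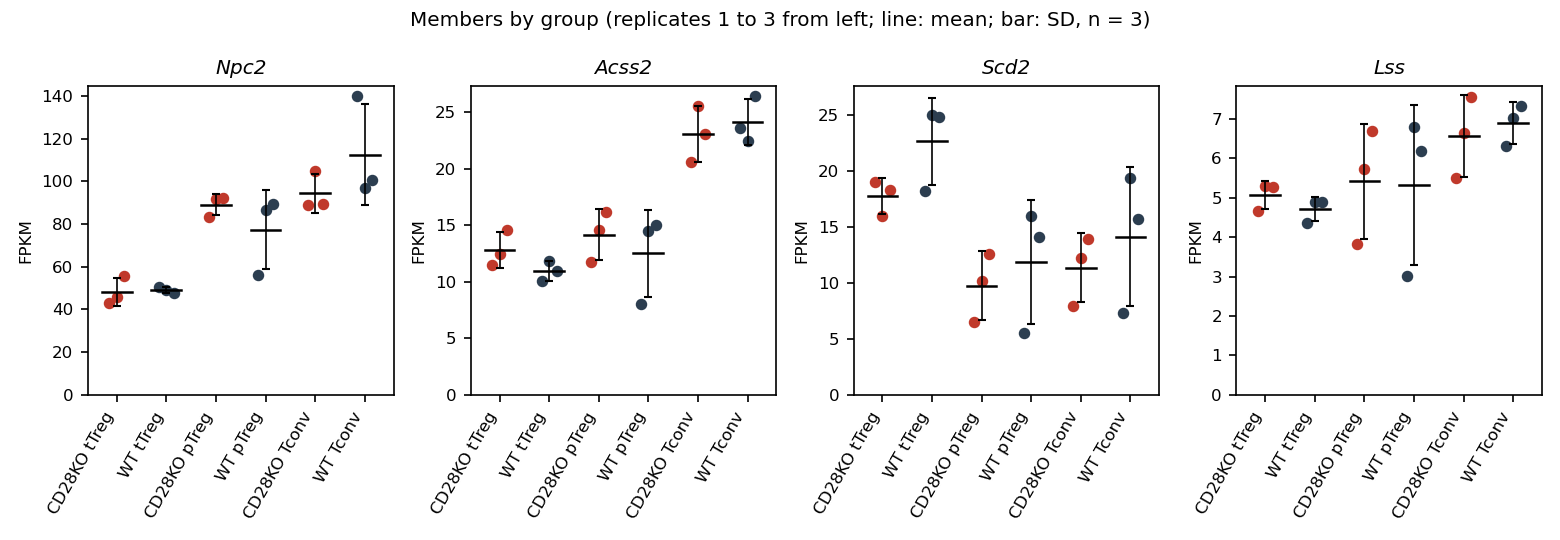
FPKM of Npc2, Acss2, Scd2 and Lss in the 18 libraries by group, red for CD28KO and dark blue for WT, with the mean as a line and the SD (n = 3) as a bar, each axis starting at 0. Npc2 is lowest in both tTreg groups, Acss2 is highest in both Tconv groups, Scd2 has its highest means in tTreg with a wide spread elsewhere, and Lss is lower on average in tTreg than in Tconv.

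To show what stands before the start of the genes that differed, the 250 bases upstream of the RefSeq start (GRCm38.p6) are given for Acss2 (chr2:155517793-155518042, plus strand) and Npc2 (chr12:84773113-84773362, minus strand), beside Hmgcs1 (chr13:119690101-119690350, plus strand), the one gene of the set whose window held the sterol response element searched for. Capitals mark that element (TCACNCCAC) and the NF-Y box (CCAAT), an element that SREBPs are known to use together with their own, on either strand, so that ATTGG is a box read on the other strand.
Acss2: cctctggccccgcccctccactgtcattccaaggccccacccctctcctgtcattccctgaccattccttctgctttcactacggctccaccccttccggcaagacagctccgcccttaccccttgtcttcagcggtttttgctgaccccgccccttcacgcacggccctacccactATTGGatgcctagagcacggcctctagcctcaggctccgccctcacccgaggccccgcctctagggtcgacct
Npc2: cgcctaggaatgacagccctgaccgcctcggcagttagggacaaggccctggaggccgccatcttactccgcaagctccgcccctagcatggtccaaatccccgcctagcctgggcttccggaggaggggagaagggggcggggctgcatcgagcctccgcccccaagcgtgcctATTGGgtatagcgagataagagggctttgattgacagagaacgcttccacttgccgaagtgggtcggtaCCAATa
Hmgcs1: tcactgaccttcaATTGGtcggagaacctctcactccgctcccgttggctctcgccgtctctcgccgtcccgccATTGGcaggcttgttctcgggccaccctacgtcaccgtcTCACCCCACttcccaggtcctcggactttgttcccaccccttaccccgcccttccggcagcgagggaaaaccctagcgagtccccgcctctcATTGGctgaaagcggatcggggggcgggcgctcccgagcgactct
Acss2 held 1 NF-Y box and Npc2 held 2, neither held the sterol element, and Hmgcs1 held 3 boxes and 1 sterol element. The RefSeq starts of Acss2 and Npc2 lie inside the gene positions given above for them. The last bases of both windows, with the box of Acss2 and the last box of Npc2, thus fall within those positions. RefSeq windows were at hand for 29 of the 37 genes, 38 windows in all, and the same search was made in all 32851 windows. The sterol element stood in 1 of 38 windows (2.63%) and in 1.05% of all windows. NF-Y boxes stood in 22 of 38 windows (57.9%, 21 genes) and in 33.9% of all windows, and the E-box CACGTG in 7 of 38 (18.4%) and in 6.02%. The LXR element GGTCANNNNNGGTCA stood in 0 of 38 windows and in 0.0639% of all windows. CACGTG and GGTCANNNNNGGTCA were searched on both strands too, no 2 marked matches in the 3 sequences above share a base, and a match is a description of letters, not of binding.

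Scd2, which places a double bond in saturated fatty acids, had its highest levels in tTreg. It was 19.0, 15.9 and 18.3 FPKM in CD28KO tTreg, 6.49, 10.1 and 12.6 FPKM in CD28KO pTreg, and 7.95, 12.2 and 13.9 FPKM in CD28KO Tconv. In WT it was 18.2, 25.0 and 24.8 FPKM in tTreg, 5.52, 15.9 and 14.04 FPKM in pTreg, and 7.32, 19.4 and 15.7 FPKM in Tconv. The tTreg libraries lay above all pTreg libraries of the same genotype, while replicate 1 was the lowest library in each pTreg and Tconv group. The tTreg minus pTreg difference was 0.84 ± 0.36 in CD28KO (adjusted p = 0.318) and 0.98 ± 0.36 in WT (adjusted p = 0.179), neither called. Without WT pTreg replicate 1 the WT difference was 0.55 ± 0.34 (adjusted p = 0.537). With the replicate number as a block, both were called (SE 0.24 each, adjusted p = 0.0443 in CD28KO and 0.014 in WT), as was tTreg minus Tconv in WT (0.73 ± 0.24, adjusted p = 0.0446). The sums over 6 B cell marker genes were 5.62 to 6.15 FPKM in CD28KO tTreg, 4.31 to 6.31 in CD28KO pTreg and 0.952 to 3.26 in CD28KO Tconv, and 10.7 to 12.5 FPKM in WT tTreg, 4.89 to 7.68 in WT pTreg and 1.39 to 1.93 in WT Tconv. They overlapped between tTreg and pTreg in CD28KO and did not in WT. They came almost wholly from Cd79a and Cd79b, the defining marker Ms4a1 was at most 0.224 FPKM, and the part of these genes in the Scd2 values was not tested. Fasn stood at 15.2 ± 5.49 FPKM in WT pTreg and 23.4 ± 4.10 FPKM in WT Tconv (-0.64 ± 0.25, adjusted p = 0.196), with no overlap of the 2 groups and no call. Without WT pTreg replicate 1 (8.95 FPKM, the lowest Fasn value of the 18 libraries), the difference was -0.32 ± 0.20 (adjusted p = 0.583). Of the 35 genes, 3 lay lower without overlap there (Fasn, Acss2 and Npc2), beside 9.56% of all tested genes.

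For the sterol synthesis enzymes the main model called no gene between populations in either genotype, but alternatives did. Sc5d was called higher in WT tTreg than in WT pTreg with the replicate block (0.58 ± 0.17, adjusted p = 0.0372). In CD28KO tTreg against CD28KO pTreg, quantile normalization added Sqle and Sc5d. Leaving out the 3 libraries that stood apart added Mvk, Mvd, Fdps and Tm7sf2. In CD28KO tTreg against CD28KO Tconv these 2 alternatives added Lss and Dhcr7, and Ebp. More genes were called over all tested genes as well under these alternatives. In CD28KO, tTreg lay below pTreg for 15 of the 17 sterol enzymes, with a median difference of -0.14, beside -0.03 over all tested genes. Without overlap between the groups were 6 lower in CD28KO tTreg (Mvk, Mvd, Fdps, Sqle, Tm7sf2 and Acat2) and 1 higher (Sc5d), beside 21.5% of all tested genes lower without overlap and 11.9% higher. Sqle was 6.18, 6.80 and 6.69 FPKM in CD28KO tTreg, against 7.69, 8.91 and 9.95 FPKM in CD28KO pTreg (-0.38 ± 0.20, adjusted p = 0.46). Srebf2 differed in the same direction, at 48.6 ± 3.599 FPKM in CD28KO tTreg and 67.7 ± 10.8 FPKM in CD28KO pTreg (-0.46 ± 0.20, adjusted p = 0.331). Srebf2 was called without WT pTreg replicate 1 (adjusted p = 0.0409) and Fdps without WT Tconv replicate 1 (-0.55 ± 0.14, adjusted p = 0.0343). In WT the 17 enzymes lay on both sides of 0 (9 above and 8 below, median 0.01, beside 0.19 over all tested genes), whereas without WT pTreg replicate 1 14 of 17 lay below 0 (median -0.18) and after quantile normalization 14 of 17 did (median -0.26).

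CD28KO pTreg against CD28KO Tconv ran the other way, with 13 of 17 sterol enzymes above 0 and a median of 0.27, beside 0.14 over all tested genes. Without overlap, 8 of the 17 were higher in CD28KO pTreg (Mvk, Pmvk, Mvd, Fdps, Fdft1, Tm7sf2, Nsdhl and Ebp) and 0 lower, beside 26.4% of all tested genes higher without overlap and 3.71% lower. Fdft1 was 8.47, 9.26 and 11.3 FPKM in CD28KO pTreg, against 5.80, 6.98 and 7.28 FPKM in CD28KO Tconv (0.47 ± 0.18, adjusted p = 0.164), and without WT pTreg replicate 1 it was called (adjusted p = 0.0455). After quantile normalization 9 of 17 enzymes lay above 0 (median 0.09). Over all 35 genes the median was then -0.07 beside -0.02 over all tested genes, in place of 0.10 beside 0.14, so the direction for the set as a whole changed with the scaling. Without CD28KO Tconv replicate 1 the 2 medians were -0.03 and 0.06. In WT pTreg against WT Tconv 13 of 17 sterol enzymes lay below 0 (median -0.10, beside -0.21 over all tested genes), but without WT pTreg replicate 1 11 of 17 lay above 0 (median 0.10) and after quantile normalization 12 of 17 did (median 0.11).

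Hmgcs1, Idi1, Cyp51 and Insig1, all well-known SREBP targets, had no call between populations. Hmgcs1 averaged 11.8 ± 1.16 FPKM in CD28KO tTreg, 13.1 ± 1.58 in WT tTreg, 12.1 ± 1.73 in CD28KO pTreg, 10.99 ± 3.34 in WT pTreg, 13.1 ± 2.45 in CD28KO Tconv and 13.2 ± 3.02 in WT Tconv. Idi1 averages lay between 6.56 and 7.31 FPKM in the 6 groups, with a tTreg minus Tconv difference of -0.07 ± 0.26 in CD28KO (95% interval -0.62 to 0.48) and 0.13 ± 0.26 in WT (95% interval -0.42 to 0.68). Cyp51 averages lay between 6.75 and 8.49 FPKM, and those of Insig1 between 15.5 and 18.4 FPKM. Lss was lower in tTreg on average, at 5.07 ± 0.357 FPKM in CD28KO tTreg and 6.57 ± 1.04 in CD28KO Tconv (-0.31 ± 0.23, adjusted p = 0.585), and at 4.71 ± 0.313 in WT tTreg and 6.90 ± 0.525 in WT Tconv (-0.47 ± 0.23, adjusted p = 0.25). The groups of Lss did not overlap in either genotype. Without overlap, 6 of the 35 genes were lower in CD28KO tTreg than in CD28KO Tconv (10.7% of all tested genes) and 7 higher (26.5%), and 4 were lower in WT tTreg than in WT Tconv (14.4%). For Lss, after quantile normalization both differences were called (-0.51 ± 0.10, adjusted p = 0.0012, and -0.59 ± 0.10, adjusted p = 0.00037).

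**Figure D4:**
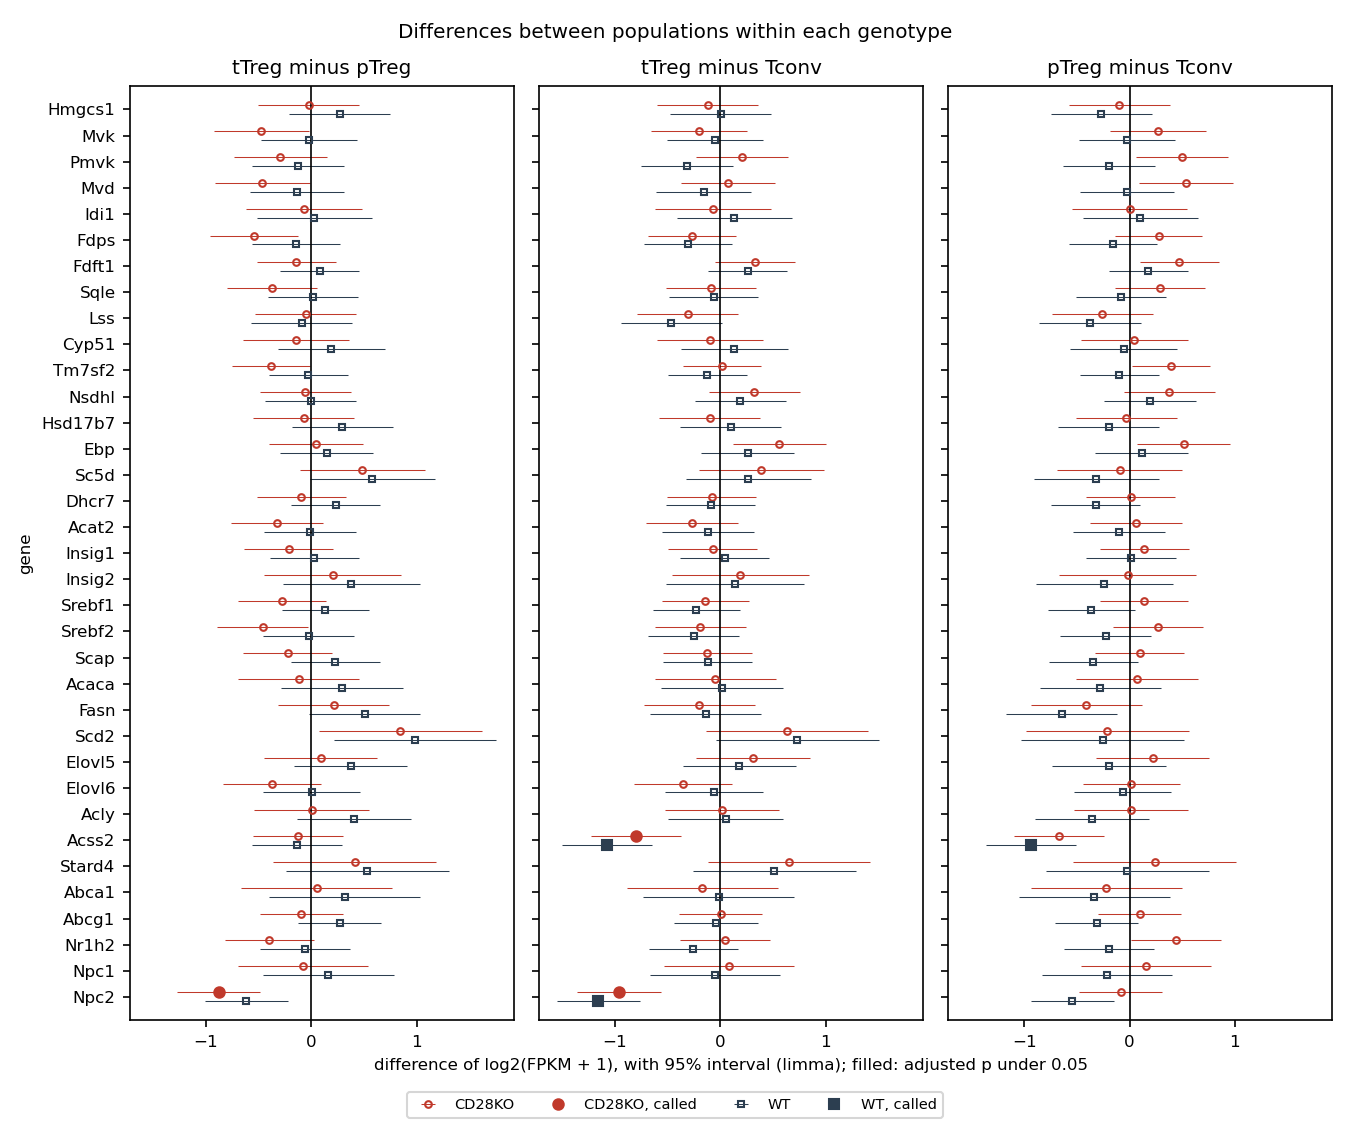
Differences of log2(FPKM + 1) between populations for the 35 tested genes (tTreg minus pTreg, tTreg minus Tconv and pTreg minus Tconv from left), with 95% intervals from limma, circles for CD28KO and squares for WT, filled where called. The 6 filled symbols are Npc2 and Acss2, all left of 0, and Scd2 lies right of 0 in both left panels with intervals ending between 1.40 and 1.76.

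Beside the 37 genes, a list of 34 other genes of these pathways was examined (15 of the sterol branch, 19 of the fatty acid branch), of which 33 were in the files and 29 tested. None of the 29 was called by limma for CD28KO against WT in any of the 3 populations. Of the 15 tested in the fatty acid branch, 1 was higher and 2 were lower in tTreg than in Tconv of each genotype, where 12.1% of all tested genes were called in CD28KO and 12.6% in WT, either direction counted. Dgat2, an enzyme that completes triglycerides, was the one higher in tTreg. It was 3.49, 2.85 and 3.19 FPKM in CD28KO tTreg, at most 0.257 FPKM in CD28KO pTreg and at most 0.803 FPKM in CD28KO Tconv. In WT it was 2.13, 2.44 and 3.44 FPKM in tTreg, at most 0.387 FPKM in pTreg and at most 0.266 FPKM in Tconv. The tTreg libraries stood above all others. Differences were 1.77 ± 0.16 to pTreg and 1.60 ± 0.16 to Tconv in CD28KO, and 1.52 ± 0.16 and 1.55 ± 0.16 in WT. The value of 0.803 FPKM belonged to CD28KO Tconv replicate 3, the library with Foxp3 at 21.1 FPKM. Elovl7, an elongase gene at 0.135 to 0.694 FPKM in all Treg libraries and 1.04 to 1.78 FPKM in all Tconv libraries, was lower in each Treg subset of each genotype, from -0.73 ± 0.14 in CD28KO tTreg to -0.95 ± 0.14 in CD28KO pTreg. Dgat2 reached 1 FPKM only in tTreg and Elovl7 only in Tconv, so each passed the filter only through the population where it was high. The counts above include both genes, and no p-value is given for them. Lpcat3, an LXR-responsive enzyme that remodels phospholipids, averaged 8.76 ± 0.947 FPKM in CD28KO tTreg, 9.93 ± 0.682 in CD28KO pTreg and 15.3 ± 0.721 in CD28KO Tconv, and 9.95 ± 1.35 FPKM in WT tTreg, 8.78 ± 1.64 in WT pTreg and 16.0 ± 1.72 in WT Tconv. It was called lower in all 4 comparisons with Tconv (adjusted p between 0.0038 and 0.0442), but it overlaps Emg1 on the other strand. Emg1 averaged 107 ± 5.25 FPKM in CD28KO tTreg, 148 ± 5.66 in CD28KO pTreg and 123.5 ± 7.04 in CD28KO Tconv, and 106 ± 4.83 FPKM in WT tTreg, 120.3 ± 32.4 in WT pTreg and 153 ± 25.5 in WT Tconv. Its mean was below that of Tconv in 3 of the 4 comparisons and above it in CD28KO pTreg, and its part in the Lpcat3 values was not tested. Dgat1, the other enzyme of that step, was higher in CD28KO pTreg than in CD28KO Tconv (20.8 ± 1.95 and 12.5 ± 0.942 FPKM, 0.69 ± 0.18, adjusted p = 0.0287).

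**Figure D5:**
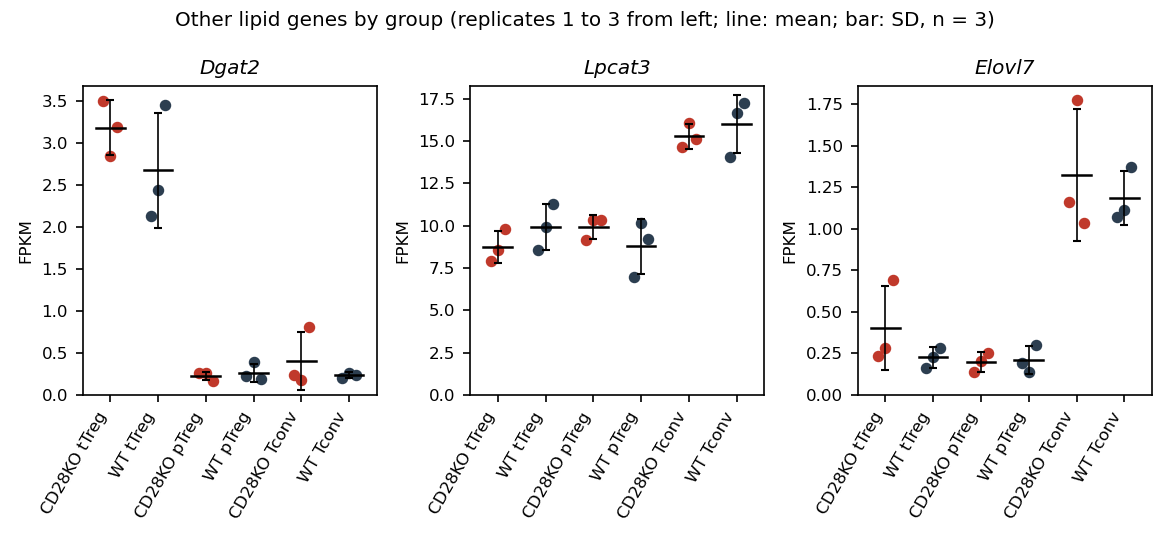
FPKM of Dgat2, Lpcat3 and Elovl7, genes of the same pathways outside the set of 37, in the 18 libraries by group, red for CD28KO and dark blue for WT, with the mean as a line and the SD (n = 3) as a bar, each axis starting at 0. Dgat2 is above 2 FPKM in the 6 tTreg libraries alone, and the other 2 are highest in both Tconv groups.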

How the data were processed

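RNA-seq of sorted spleen T cells from 18 libraries was analysed, 3 in each of 6 groups. Total RNA was made into libraries with a NEBNext Ultra kit and sequenced as single reads of 50 nt, per the labels' protocols. Named in the submitters' processing notes, with no role or order, are Cufflinks, TopHat2 (2.0.11), Trimmomatic and the build GRCm38; the gene annotation and strand setting are not given in the sources used here. The deposited values are FPKM per gene, 1 table per library, so depth in reads is unknown; low values were searched for steps worth 1 read and none were found.

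Genes that reached 1 FPKM in 3 or more libraries were tested on log2(FPKM + 1) with limma (3.58.1, in R 4.3.3) in 1 model of the 6 groups (12 residual degrees of freedom, median prior degrees of freedom 4.06), with Benjamini-Hochberg adjustment over all genes tested in each of 9 comparisons of 2 groups and 3 differences of CD28 effects. The model was tested on simulated data. The 37 genes and all gene lists were chosen with earlier results of these data known. Every gene of the set is named at least once by role; full values are given for called genes and for Hmgcs1, Idi1, Sqle, Fdft1, Cyp51, Insig1, Srebf1, Srebf2, Fasn, Scd1, Scd2, Acly, Abca1 and Abcg1 where a sentence is about them, and other genes shown in full (Fdps, Pmvk, Ebp, Nr1h2, Lss, Npc1, Dgat2, Elovl7, Lpcat3 and Dgat1) were picked after their values were seen.

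Alternatives were a pseudocount of 0.1, no filter, quantile normalization, a replicate block, only the compared groups, each library left out, 3 libraries left out together and, chosen after seeing the data, 4 libraries left out. Replicate numbers come from the labels. Same-numbered libraries deviated together, with every correlation over 0.1, in 6 of 9 comparisons. In the other 3 (CD28KO against WT in tTreg and in pTreg, and WT pTreg against WT Tconv) the numbers were not taken to pair. The main model had no replicate block in any comparison, so its calls leave out the pairing in those 6. Calls with the block are given among the alternatives. Promoter sequences are from RefSeq (GRCm38.p6), matched by symbol for 29 of 37 genes. Gene positions are on GRCm38. Some results, also of the other sterol genes, are not reported here.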

Additional observations from a re-analysis of the deposited data

Results flagged for a closer look

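Nr1h2, the gene of LXR beta, is given here because its libraries moved in opposite directions with genotype in pTreg and in Tconv. All 3 CD28KO pTreg libraries lay above all 3 WT pTreg libraries (change 0.24 ± 0.20, adjusted p = 0.77), and all 3 CD28KO Tconv libraries lay below all 3 WT Tconv libraries (change -0.40 ± 0.20, adjusted p = 0.531). The test of the difference itself gave 0.64 ± 0.28 (limma, adjusted p = 0.467), which misses the threshold. The most extreme values of both comparisons belonged to WT pTreg replicate 1 (46.0 FPKM) and WT Tconv replicate 1 (97.3 FPKM), libraries that stood apart for many other genes as well.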

How the results depend on the processing

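The counts of genes called for CD28KO against WT, and for the 3 differences of CD28 effects, were 0 under every alternative run. Between populations the counts moved, as did the counts over all tested genes, whose share called under the same alternative stands in brackets where it is given. A count or range without such a share cannot be set against all tested genes. In CD28KO tTreg against CD28KO pTreg (1 called, 4.08%), 5 were called after quantile normalization (9.29%), 2 with the replicate block (6.53%), 8 without the 3 libraries that stood apart (15.1%), 3 with only the compared groups (9.88%), 5 without those 3 libraries and CD28KO tTreg replicate 3 (11.01%), and 0 to 2 with each library left out. In CD28KO tTreg against CD28KO Tconv (2 called, 12.1%), the counts were 6 after quantile normalization (23.0%), 4 without the 3 libraries (20.05%) and 1 to 3 with each library left out. They were 3 with the replicate block, 3 with only the compared groups and 3 without the 4 libraries, shares over all tested genes not given. In CD28KO pTreg against CD28KO Tconv (0 called, 5.85%), they were 4 after quantile normalization (10.3%), 1 with the replicate block (Acss2, 9.38%), 5 without the 3 libraries (16.98%), 1 with only the compared groups (6.90%), 6 without the 4 libraries (15.3%) and 0 to 2 with each library left out. In WT tTreg against WT pTreg (0 called, 4.93%), they were 3 after quantile normalization (8.75%), 3 with the replicate block (Sc5d, Scd2 and Npc2, 9.98%), 1 without the 3 libraries (7.44%), 1 without the 4 libraries (6.68%) and 0 to 1 with each library left out. In WT tTreg against WT Tconv (2 called, 12.6%), the counts were 2 to 3 with each library left out. They were 3 after quantile normalization (Lss added), 3 with the replicate block and 3 without the 3 libraries (Lss added), shares over all tested genes not given. In WT pTreg against WT Tconv (1 called, 4.49%), they were 2 with the replicate block (9.21%), 0 with only the compared groups (1.74%) and 0 to 1 with each library left out. Same-numbered libraries correlated there at 0.508, 0.029 and 0.438, in replicate order. The numbers were not taken to pair, because the lowest of these values lay under the minimum of 0.1. The cause of these shifts was not tested. Of 150 alternative values of the 6 called differences of Npc2 and Acss2, 144 stayed past the threshold in the same direction, 6 lost the call and 0 reversed. Many of the 150 left out a library outside the compared groups, where the difference itself could not change, so this count is no measure of stability. The losses came when a library of a compared group was left out or, for Acss2 in WT pTreg, also with only the compared groups. The block also added Scd2 in CD28KO tTreg against CD28KO pTreg and in WT tTreg against WT Tconv, Stard4 in CD28KO tTreg against CD28KO Tconv and Fasn in WT pTreg against WT Tconv, and changed no other call. After each gene's group mean was subtracted, 17 of 18 libraries correlated best, across genes and among all 17 others, with a library of the same replicate number. The depth in reads is unknown, so counting error could not be given.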
